A study of Mus musculus with 2 samples.

Results

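Peaks of the DNA-binding protein DPPA2 that were called between genes after adriamycin, and that had no counterpart in untreated cells, are described here. They were chosen from the deposited peak lists for chromosomes 1 to 19, X and Y. The fold enrichment is summit over local background, taken here with 1 fragment added to each. An adriamycin peak was taken when its fold was below 9 and it overlapped no untreated peak by even 1 bp. Its summit also had to lie outside every RefSeq protein-coding gene and more than 1000 bp from any end of a protein-coding or lncRNA gene. This gave 4037 of the 16229 adriamycin peaks, or 24.9%, covering 1.22 Mb. They made up 37.9% of the 10645 adriamycin-only peaks (95% Clopper-Pearson interval 37.0 to 38.9%). Because the choice used the fold and the missing untreated peak, both are descriptions and carry no test. All intervals here cover counting error only.

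The assay was ChIP-seq, which sequences DNA pulled down with an antibody, here an antibody to Dppa2. The cells were p53+/+ R1/E, a mouse embryonic stem cell line, grown on gelatin with LIF. The genotype field of the adriamycin sample holds its treatment, so that field gives no genotype for it. There was 1 untreated library and 1 library from cells given adriamycin for 8 h, and the labels gave both the same batch entry. Adriamycin (doxorubicin) poisons topoisomerase II and breaks DNA. With 1 library per group, no comparison between them has a replicate check and no p-value is given. In a bulk library, more cells with the protein at a site and more protein there per cell cannot be told apart.

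DPPA2 is a small chromatin protein with a SAP domain that works with its partner DPPA4 in early embryos, germ cells and embryonic stem cells. The pair is known for keeping developmental promoters in a poised state and for switching on genes of the totipotent-like 2-cell state. Sequence between genes holds distal enhancers, pseudogenes, repeats and small RNA genes.

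By the rule, the summits of these peaks lie away from the ends of protein-coding and lncRNA genes. The cases below are shown because a peak reaches a promoter window. Such a window is defined as 250 bp before to 50 bp after a RefSeq start (build GRCm38.p6, the build of mm10). Of the 11588 lncRNA and 21263 protein-coding windows in the RefSeq promoter table, 2 overlapped such a peak. The low number follows largely from the rule. Both were windows of lncRNA genes on the plus strand, at starts inside the annotated gene span. Capitals mark the bases inside the peak.
Gm39683: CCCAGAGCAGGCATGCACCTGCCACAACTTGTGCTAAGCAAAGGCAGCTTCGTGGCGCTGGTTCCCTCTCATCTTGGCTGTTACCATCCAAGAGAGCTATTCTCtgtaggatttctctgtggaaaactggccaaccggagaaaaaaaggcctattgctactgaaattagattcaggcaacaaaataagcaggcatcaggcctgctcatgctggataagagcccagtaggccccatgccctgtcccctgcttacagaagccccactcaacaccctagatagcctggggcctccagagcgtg
Gm39236: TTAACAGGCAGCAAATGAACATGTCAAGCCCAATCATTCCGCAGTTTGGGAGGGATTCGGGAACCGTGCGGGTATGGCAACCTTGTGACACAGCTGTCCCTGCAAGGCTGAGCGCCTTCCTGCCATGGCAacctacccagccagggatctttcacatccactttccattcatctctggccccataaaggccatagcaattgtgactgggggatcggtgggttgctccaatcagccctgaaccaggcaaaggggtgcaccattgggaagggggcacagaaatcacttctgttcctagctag
The Gm39683 window lies at chromosome 1, 156748624 to 156748923, and its peak, at fold 5.66 with 17 fragments at the summit (95% Poisson interval 9.90 to 27.2), covered 104 bp of it. The Gm39236 window lies at chromosome 8, 104062240 to 104062539, and its peak, at fold 3.94 with 12 fragments (6.20 to 21.0), covered 130 bp. In both cases the summit fell outside the window, 345 bp and 264 bp from the start. These windows hold 4 and 6 CG dinucleotides, and 54.9% and 35.8% of the 11588 lncRNA promoter windows in the table hold at least as many.

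MicroRNA genes were not used to choose the peaks, and 5 microRNA genes lay within 1000 bp of a member of the set. That is a small number beside the 1005 hairpins listed in the microRNA table used. Shared peaks were not counted at microRNAs alone. Over all small RNA and other such entries the shares were 0.917% of the set and 0.746% of the shared peaks. MicroRNAs are short RNAs that pair with messenger RNAs through a seed, bases 2 to 8, shown here in capitals. The sequences are from RefSeq and are given only to describe these 5 sites.
mmu-let-7i-5p: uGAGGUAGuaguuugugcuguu
mmu-miR-193a-3p: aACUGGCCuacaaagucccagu
mmu-miR-203-3p: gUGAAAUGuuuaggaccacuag
mmu-miR-7214-3p: cUCAGUCCugaccccuugagcgca
mmu-miR-8117: gCUCGUGUggaacagaagggg
The let-7i seed is shared by 11 mature mouse names in the table, the let-7 family and miR-98 among them, and that of miR-193a-3p also by miR-193b-3p. The other 3 seeds shown belong to 1 name each. The peak at Mir8117 on chromosome 5 overlapped the hairpin and was the strongest of the 5, at fold 7.81 with 19 fragments (11.4 to 29.7). The peak at Mir203 on chromosome 12 also overlapped its hairpin, at fold 3.38 with 13 fragments. Peaks stopped 318 bp from the let-7i hairpin on chromosome 10 (fold 4.42, 12 fragments), 415 bp from that of miR-193a on chromosome 11 (fold 4.73, 15 fragments) and 281 bp from that of miR-7214 on chromosome 17 (fold 3.54, 16 fragments). That no untreated peak overlapped these 5 peaks follows from the rule. The nearest untreated peak was 17144 bp away or more, beside a median gap of 114836 bp over the whole set.

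The median fold of the peaks was 5.04 (quartiles 4.44 and 5.92), close to the 5.10 of the whole adriamycin list, and the highest was 8.99, just under the limit. The number of fragments stacked at the summit (pileup), recovered from the deposited values, had a median of 12 (quartiles 10 and 14) and ran from 6 to 46. Peaks that both libraries shared between genes reached a median fold of 6.72 and a median pileup of 17 in the adriamycin library. A pileup of 10 or fewer was found in 35.5% of the adriamycin-only peaks between genes and in 8.61% of the shared ones. Their median width was 270 bp against 416 bp for the shared peaks, and 17.1% had the minimum width of 200 bp. The untreated-only peaks between genes had a similar median fold, 4.87, and the same median pileup, 12. They were narrower, with a median width of 229 bp and 30.2% at the minimum width. A pileup of 10 or fewer was less common among them, at 24.5%. Adriamycin-only peaks inside genes had a median fold of 4.64, a median pileup of 13 and a median width of 276 bp. Of these, 20.1% had a pileup of 10 or fewer.

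A further 28 adriamycin-only peaks between genes stood at or above the fold limit. They ran from fold 9.01 to 14.6 with 18 to 29 fragments. Nearest to the limit from above was a peak on chromosome 1 near Mroh9 at fold 9.01 with 28 fragments. Just inside it was the peak near Atoh1 at fold 8.99 with 24.

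**Figure D1:**
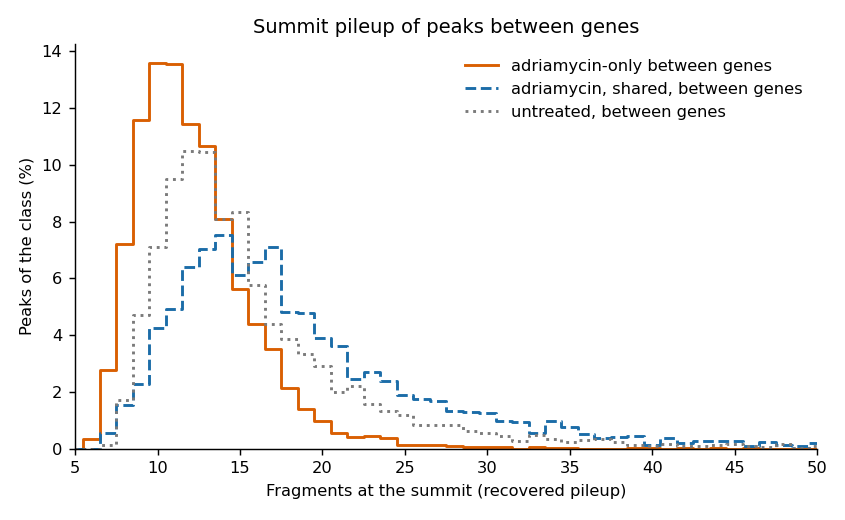
Share of peaks (%) at each summit pileup (fragments, 5 to 50 shown) for adriamycin-only peaks between genes, shared peaks between genes and untreated peaks between genes. The adriamycin-only curve lies furthest to the left, with a median of 12 fragments against 17 for the shared peaks and 14 for the untreated ones.

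Absence from the untreated list was common among adriamycin peaks of every position. It held for 65.6% of the whole adriamycin list, 57.9% of its 7016 peaks between genes, 70.6% of those inside genes and 72.6% of those at gene ends. In the other direction, 17.1% of the 3581 untreated peaks between genes (613) had no adriamycin counterpart. The lists hold values at called peaks only, so the untreated level at these sites is not known, and absence from a list is not a measured rise. The lowest pileup called was 6 in the adriamycin and 7 in the untreated library, over genome-wide backgrounds of 1.03 and 1.19 fragments. When the adriamycin list was limited to its strongest 7043 peaks, the length of the untreated list, 1271 peaks met the rule. The part of depth and calling in the difference was not tested.

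The adriamycin-only peaks between genes lay closer to gene ends than the shared ones, and about as close as the untreated-only ones. Their median distance to the nearest gene end was 26.8 kb (quartiles 9.38 and 87.0 kb), against 37.5 kb for the shared and 26.5 kb for the untreated-only peaks. In the class 1 to 5 kb from a gene end lay 13.3% of them (12.2 to 14.4%), against 8.00% of the shared peaks (7.04 to 9.04%), 13.2% of the untreated-only peaks (10.6 to 16.2%) and 12.5% of all bases that meet the same position rule. Per Mb of such sequence there were 2.67 at 1 to 5 kb, 3.19 at 5 to 10 kb and 2.97 at 10 to 50 kb. The density then fell to 2.24 at 50 to 100 kb, 1.90 at 100 to 500 kb and 1.79 beyond 500 kb. The shared peaks had 1.18 per Mb at 1 to 5 kb and 2.15 at 50 to 100 kb, so their density was lowest beside genes and beyond 500 kb (1.15).

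**Figure D2:**
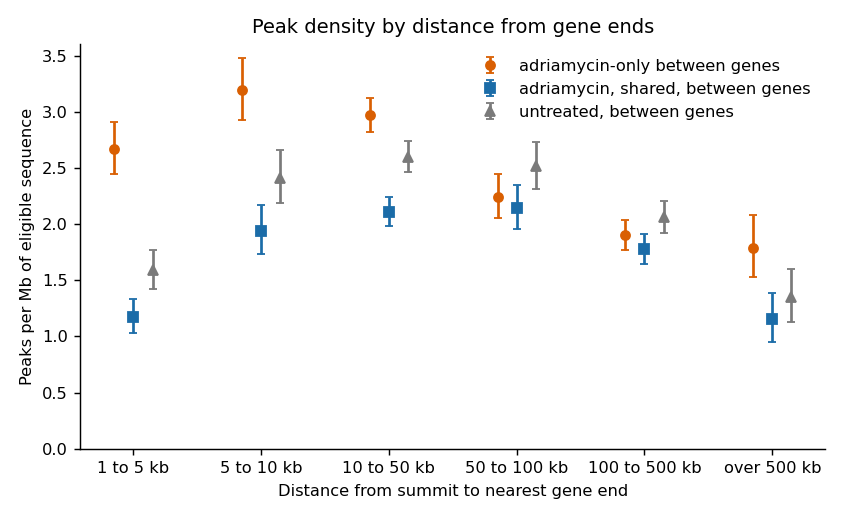
Peaks per Mb of sequence that meets the position rule, by distance from the nearest gene end, with 95% Poisson intervals, for adriamycin-only, shared and untreated peaks between genes. The adriamycin-only density is 2.67 at 1 to 5 kb and 1.79 beyond 500 kb, and the shared density is 1.18 at 1 to 5 kb.

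Some summits between protein-coding genes fell inside annotated non-coding genes. This was so for 676, or 16.7% (15.6 to 17.9%), with 403 in lncRNA genes and 250 in pseudogenes. The total was 13.8% (12.6 to 15.1%) among shared peaks between genes and 19.9% (16.8 to 23.3%) among untreated-only ones. Inside lncRNA genes the density was 2.58 per Mb, close to the 2.52 per Mb of all eligible sequence, and inside pseudogenes it was 9.14 (8.04 to 10.3).

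Pseudogenes under 2 kb stood out. Short pseudogenes are often processed copies, which arise when a messenger RNA is copied back into the genome. They held 133 of the adriamycin-only peaks, 25.0 per Mb (21.0 to 29.7), against 2.39 per Mb outside pseudogenes and lncRNA genes, a ratio of 10.5. The corresponding ratio was 4.57 for shared peaks, 5.26 for all untreated peaks between genes and 7.83 for the untreated-only ones, so the density in short pseudogenes was higher in all of these classes. As a share of peaks, the adriamycin-only set had 3.29% there (2.77 to 3.89%) and the untreated-only set 2.45% (15 of 613), with 95% intervals that overlap. In pseudogenes of 2 to 10 kb there were 9.38 per Mb, and in longer ones 4.10. The split by length was chosen after the values were seen.

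Copies of ribosomal protein genes were among them. Rps2-ps6 on chromosome 14 (76236647 to 76237574) held a peak at fold 7.47 with 25 fragments (16.2 to 36.9). Rps2-ps7 on chromosome 16 had 16 fragments at fold 5.21 and Rps2-ps8 on chromosome 17 had 17 at fold 5.59, so 3 copies of Rps2, which encodes a protein of the small ribosomal subunit, each carried a peak. Rps4l-ps on chromosome 7 had 18 fragments at fold 6.88. Pomc-ps1 on chromosome 19, a copy of the gene for the hormone precursor proopiomelanocortin, had fold 8.46 with 21 fragments. Trp53-ps on chromosome 17 (54419597 to 54421236), a copy of the p53 gene, had fold 5.93 with 13 fragments (6.92 to 22.2). These names were chosen after their values were seen. A processed copy resembles its parent gene, and how reads that fit several places were handled is not given in the sources used here, so the placement of these peaks is uncertain. Over the 133 the median fold was 5.08 and the median pileup 13, near those of the whole set, and 12 lay within 10 kb of an untreated peak.

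Other non-coding hosts were long. The immunoglobulin heavy chain locus Igh held 13 peaks (4.73 per Mb) beside 2 shared and 17 untreated ones. The light chain locus Igk held 6 (1.89 per Mb) and the T cell receptor locus Tcra 5 (2.78 per Mb), near the 2.52 of all eligible sequence. Antigen receptor loci held 0.694% of the adriamycin-only peaks between genes, 0.983% of the shared and 3.26% of the untreated-only ones. Snhg14, the long host transcript of snoRNAs between Ube3a and Snrpn in the imprinted region of chromosome 7, held 8, and it also contained 6 shared peaks and 16 untreated ones. Of these 8, 7 lay within 1000 bp of a snoRNA copy, such as Gm24866 (fold 6.41, 12 fragments) and Gm24760 (fold 5.83, 11 fragments). The share of Snhg14 that lies this close to a snoRNA copy was not measured. Nor was the same count made for its shared and untreated peaks, so the 7 cannot be read as a preference. snoRNAs guide chemical changes on other RNAs. Over the whole set, 37 peaks (0.917%) lay within 1000 bp of an annotated small RNA or other RNA entry outside the lncRNA class, against 22 of the shared peaks (0.746%). They comprised 16 at snoRNAs, 7 at entries of the class misc_RNA, 5 at microRNAs, 4 at snRNAs, 3 at tRNAs, 1 at a 5S-type rRNA and 1 at Tsix. The 16 at snoRNAs include the 7 in Snhg14. Tsix, the antisense partner of Xist, carried 8 fragments at fold 4.44.

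The density was lower on the sex chromosomes than on any autosome. Over all eligible sequence, 1603 Mb, it was 2.52 per Mb (2.44 to 2.60), and over the autosomes 2.73. Chromosome 4 had the highest value, 3.37 (3.00 to 3.77), and chromosome 7 the lowest of the autosomes, 2.24 (1.92 to 2.58). The X chromosome had 206 peaks, 1.68 per Mb (1.46 to 1.93), and Y had 25, 0.28 per Mb. Shared peaks were at 0.931 per Mb on X and 2.01 on the autosomes. On X the median pileup was 10 and 80.1% of the peaks sat at the genome-wide background, against 18.9% on autosomes. The part of this lower background in the lower density was not tested.

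**Figure D3:**
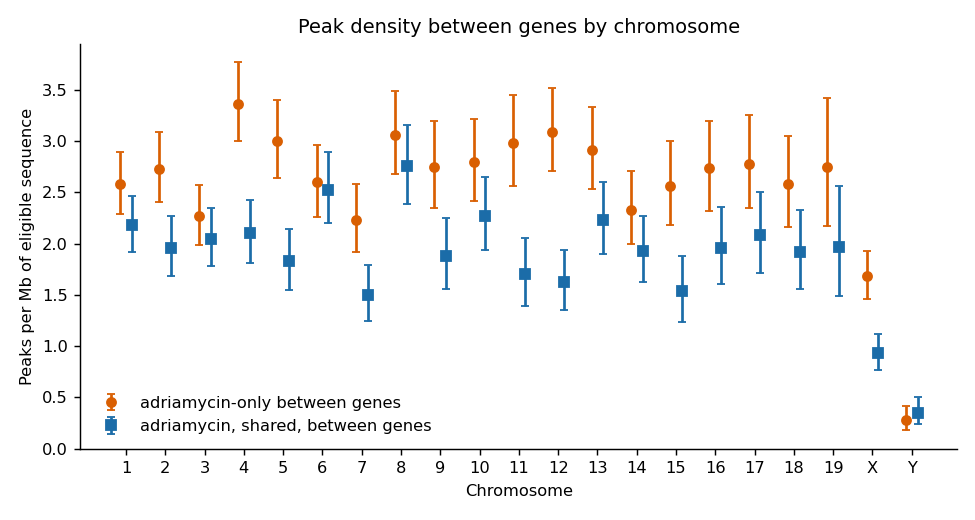
Peaks per Mb of sequence that meets the position rule on each chromosome, with 95% Poisson intervals, for adriamycin-only and shared peaks between genes. Autosomal adriamycin-only values run from 2.24 (chromosome 7) to 3.37 (chromosome 4), and X has 1.68.

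Few of these peaks were near-misses of the overlap rule. An untreated peak lay within 1 kb of 125 (3.10%), within 10 kb of 357 (8.84%) and within 100 kb of 1855 (45.9%), and the median gap was 114836 bp. The closest was a peak on chromosome 2 near the olfactory receptor gene Olfr1196, 5 bp from an untreated peak, with fold 7.40 and 14 fragments. A gap of 6 bp was found near Vmn1r227 on chromosome 17. Untreated-only peaks between genes lay within 10 kb of an adriamycin peak in 28.5% of cases, beside a longer list.

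A small group of 26 sat on a local background at least 5 times the genome-wide value. Their pileups were high (median 29, 17 to 46) and their folds low (2.47 to 4.97), and 17 of the 26 were within 10 kb of an untreated peak, against 8.48% of the other 4011. The 5 highest pileups of the set all belonged here. They lay near Hrh1 on chromosome 6 (46 and 40 fragments at 2 sites), near Gm40469 on chromosome 8 (44), near Vmn1r2 on chromosome 4 (42) and near Dynlt1b on chromosome 17 (39).

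Another member of the set lay within 10 kb of 308 peaks (7.63%) and within 100 kb of 1588 (39.3%). For shared peaks these shares were 11.9% and 39.6%. The densest stretch of 100 kb held 10, between Hrh1, the histamine H1 receptor gene, and Atg7, which encodes an autophagy enzyme. They ran over 97756 bp of chromosome 6, with 9 to 46 fragments and folds of 3.88 to 7.86. In the same stretch there were 8 untreated peaks, so these adriamycin-only calls stood among regions called in both libraries. The next densest, on chromosome 8 near Gm40469, held 8 beside 24 untreated peaks, and 3 of the 8 were on a high local background.

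Several other groups stood where the untreated list held no peak or 1 peak. On chromosome 14, 6 peaks lay 305073 to 395633 bp from Tdrd3, a Tudor domain gene, with 10 to 18 fragments and no untreated peak among them. On chromosome 11, 5 lay near Dlx4, a homeobox gene, and Tac4. On chromosome 8, 5 lay 66247 to 124880 bp from Foxf1, a forkhead factor of the lung and gut mesenchyme, at pileups of 12 to 18 on local backgrounds of 2.28 to 3.74 times the genome-wide value, and 5 more, beside 1 untreated peak, were nearest to the related Foxl1 or to 1700018B08Rik. Between Cebpb and Ptpn1 on chromosome 2 there were 6, beside 1 untreated peak. Cebpb encodes a leucine zipper factor of stress and inflammatory responses.

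**Figure D4:**
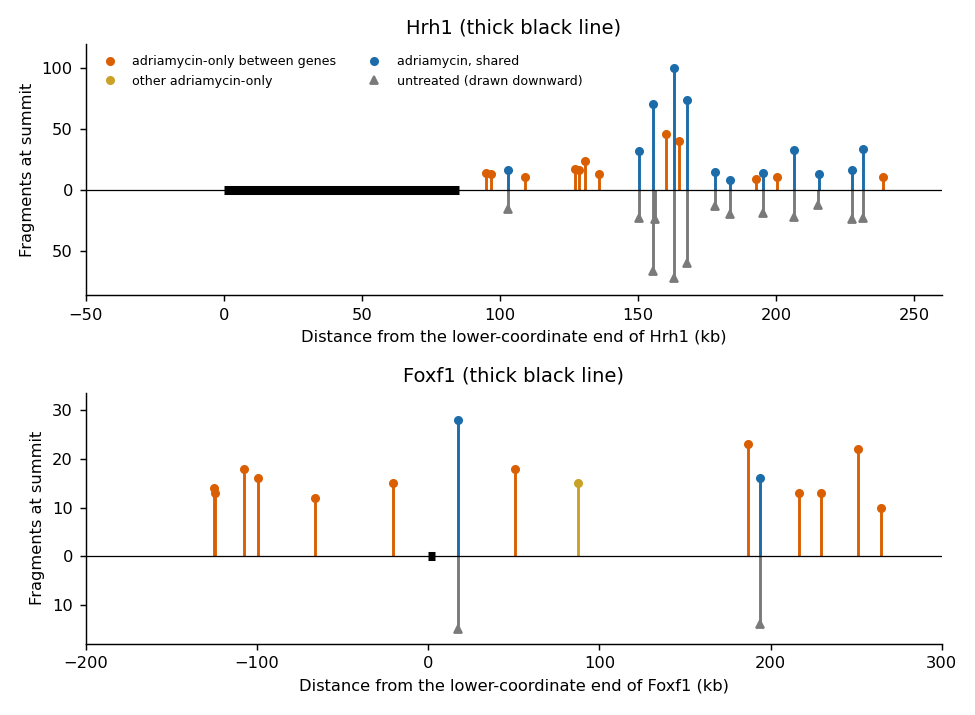
Summit pileup (fragments) of each peak against distance (kb) from the lower-coordinate end of Hrh1 and of Foxf1, with adriamycin peaks drawn upward and untreated peaks downward. Near Hrh1 the adriamycin-only peaks between genes, at 9 to 46 fragments, stand among shared ones. Near Foxf1 the 5 peaks plotted at 66247 to 124880 bp to the left of the gene have no untreated peak among them.

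The members of highest fold were each near a different gene. The first, at chromosome 6, 64719580 to 64719984, lay 9365 bp from Atoh1, a neural and sensory transcription factor, with fold 8.99 and 24 fragments (15.4 to 35.7). The next lay on chromosome 19 near LOC115489044 (8.96, 18 fragments), 33687 bp from the cyclin gene Ccng2 on chromosome 5 (8.91, 22 fragments) and 15245 bp from Dcdc2a, a doublecortin domain gene, on chromosome 13 (8.90, 25 fragments). Others of the highest folds were nearest to Herc6, a ubiquitin ligase gene (8.90, 20 fragments), Rab32 and Cyria (8.88 and 17 fragments each). The peaks near Rab32 and Cyria sat at the genome-wide background, where the fold follows from the pileup alone.

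By deposited q the order was different. The highest −log10 q, 17.0, belonged to chromosome 13, 102386895 to 102387118, far from its nearest protein-coding gene Cd180, with 28 fragments (18.6 to 40.5) and an untreated peak 522 bp away. Next came Map3k7cl on chromosome 16 (16.5, 27 fragments). A peak 4996 bp from Fos, an immediate early gene that answers stress and growth signals, at chromosome 12, 85468713 to 85469087, had fold 8.28, −log10 q 15.6 and 27 fragments (17.8 to 39.3), and the nearest untreated peak was 94063 bp off.

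At the other extreme were peaks in wide gene deserts. The farthest from any gene end, 1721832 bp, was at chromosome 3, 43558479 to 43558680, with 10 fragments at fold 4.78. Another 2 of the 4 farthest were in the same desert, with 9 and 6 fragments, and the fourth was on chromosome 1, 1325514 bp from a gene end. The widest peak, 900 bp, was on chromosome 13 nearest to Sugct, with 12 fragments.

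Each peak was also assigned to its nearest protein-coding gene, which is a position and names no target. In all, 2705 of 21887 genes (12.4%) were nearest to at least 1, and 2086 (9.53%) had it within 100 kb. Of the 2705, 19.5% had an adriamycin peak at a gene end, against 19.2% of genes nearest to a shared peak and 16.0% of all genes. The densities below are per Mb of the eligible sequence nearest to the genes of a list, to be read against 2.52 for all genes and, for shared peaks, 1.84. Shared densities are given without an interval, and several rest on few peaks.

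Genes of the Wnt pathway, in which secreted Wnt ligands bind Frizzled receptors and stabilise beta-catenin, had 19 peaks nearest to 11 of 42 genes. That is 5.31 per Mb (3.20 to 8.30), against 0.559 for shared peaks, of which there were 2. The interval allows neither for the number of lists compared nor for distance to gene ends. Over the whole set the density was 3.19 per Mb at 5 to 10 kb from a gene end, against 1.94 for shared peaks. Among ligands, Wnt4 had 3, the closest 2547 bp away with 18 fragments at fold 4.52 and 380 bp from an untreated peak. Wnt5a had 4, with 16, 10, 10 and 9 fragments, and no shared or untreated peak between genes in its 195747 bp. That stretch is short beside the 1.84 shared peaks per Mb of all genes. The last 2 of these 4 peaks were neighbours, with summits at 28620385 and 28620939 on chromosome 14. Wnt1 had 1 at 4224 bp. The inhibitor gene Dkk1 had 2, the nearer at 6168 bp. The other 7 genes had 1 or 2 each.

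Pluripotency genes had 22 peaks nearest to 12 of 32 genes, 3.11 per Mb (1.95 to 4.71) against 1.13 for shared peaks, of which there were 8. The interval includes the 2.52 of all genes. Sox2, a core factor of the stem cell state, had 6, at 15251 to 526632 bp from the gene, with 13, 17, 13, 12, 8 and 13 fragments, and no shared or untreated peak between genes in its 795453 bp. Tfcp2l1, a naive state factor, had 1 at 2198 bp with 15 fragments (8.40 to 24.7). Klf2 and Zfp42 had 1 each, 28167 and 28433 bp away.

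Known p53 target genes had 12 peaks nearest to 7 of 33 genes, 4.65 per Mb (2.40 to 8.12) against 1.55 for shared peaks, of which there were 4. The interval includes the 2.52 of all genes. Bbc3, which encodes the cell death protein PUMA, had 2, at 2856 bp (fold 4.29, 13 fragments) and 10381 bp (fold 3.55, 11 fragments). Btg2, an antiproliferative gene, had 1 at 7984 bp with 15 fragments at fold 4.32. Ccng1 and Eda2r had 3 each, all over 50 kb away. Among apoptosis genes 2 of 39 (5.13%, against 12.4% of all genes) were nearest to a peak, Bbc3 again and Bmf, a BH3-only gene, at 7863 bp (fold 7.58, 19 fragments). Their density was 1.76 per Mb (0.364 to 5.16), the same as for shared peaks, and its interval includes 2.52. Among 32 DNA damage response genes, Rpa1 and Wee1 were nearest to 1 each, which is 4.37 per Mb with a wide interval (0.529 to 15.8).

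Factors of the germ layers and of development had 35 peaks nearest to 19 of 41 genes, 3.03 per Mb (2.11 to 4.21) against 1.56 for shared peaks, of which there were 18. The interval includes the 2.52 of all genes. The closest were Pax2 (11411 bp), Lmx1a (15306 bp) and Pax7 (21567 bp). Genes of cell adhesion and axon guidance were nearest to 136, for 39 of 48 genes, but their surrounding sequence is long and the density, 2.10, was close to the 2.05 of shared peaks. Pcdh7 had 18 and Pcdh10 12, the highest counts of any gene, named after their values were seen.

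For the lists of germline and 2-cell genes the shares of genes were near the 12.4% of all genes. Of 32 germline genes 3 were nearest to a peak, Piwil4, Mael and Stk31, and of 19 genes of the 2-cell state 2 were, Gm5662 and Tdpoz4. Their densities were 3.19 (0.869 to 8.16) and 1.62 (0.334 to 4.73) per Mb, against 3.98 and 3.78 for shared peaks. Among large families the shares were 6.94% of 1110 olfactory receptor genes, 11.3% of 231 first-class and 18.5% of 124 second-class vomeronasal receptor genes, 10.0% of 400 Zfp genes, 9.52% of 42 defensin genes and 1 of 39 Hox genes. The densities did not follow these shares. They were 3.03 per Mb (2.43 to 3.74) for olfactory, 3.05 (2.04 to 4.38) for first-class and 2.38 (1.52 to 3.53) for second-class vomeronasal genes. For Zfp, defensin and Hox genes they were 3.18 (2.46 to 4.05), 4.27 (1.57 to 9.29) and 4.32 (0.523 to 15.6). Each interval includes the 2.52 of all genes.

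**Figure D5:**
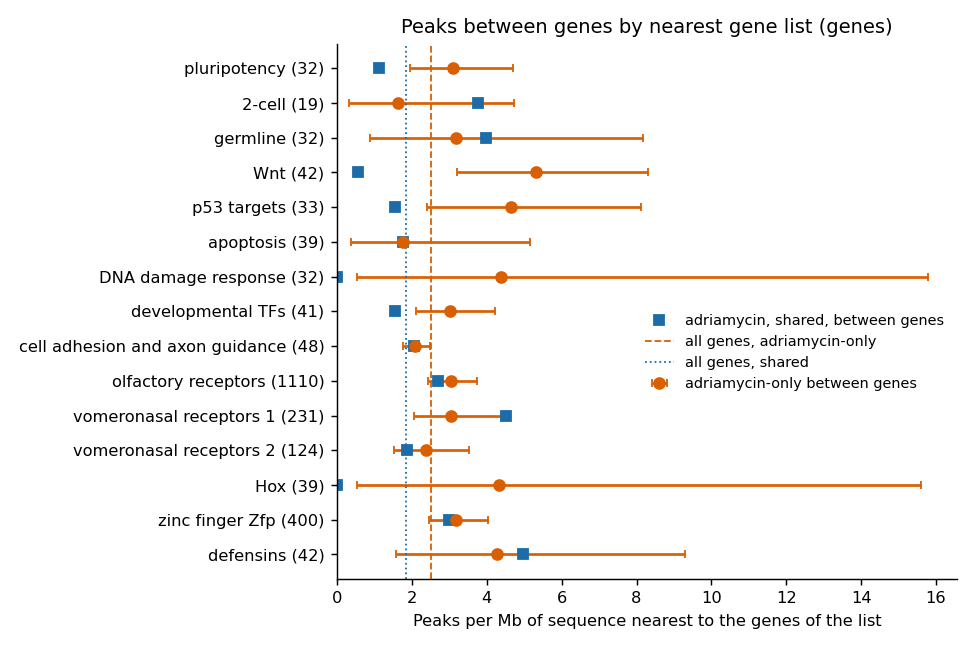
Peaks per Mb of the eligible sequence nearest to the genes of each list (number of genes in brackets), with 95% Poisson intervals for adriamycin-only peaks between genes, and shared peaks as squares. The dashed line is all genes at 2.52 and the dotted line shared peaks at 1.84. Wnt genes stand at 5.31 against 0.559, the latter from 2 shared peaks.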

How the data were processed

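DPPA2 ChIP-seq was analysed from 1 untreated and 1 adriamycin library. Per the submitters' processing notes, the build was mm10 and the tools included MACS3 3.0.0b1, Bowtie2 2.5.1, SAMtools, deepTools 3.5.1 and FastQC 0.12.1. How peaks were called and filtered, whether an input was used and how multiply mapped reads were treated is not given in the sources used here. Peaks came as separate lists for the libraries. The fold enrichment is the authors' deposited ratio of summit over local background. In the recovery below, this ratio was taken to have 1 fragment added to both of its terms. The deposited −log10 p and −log10 q values and the deposited score are the authors' own, and another deposited value is the distance from peak start to summit.

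The lists hold no read totals. The pileup was recovered as the whole number of fragments that gives both the fold and −log10 p (within 0.001), for 99.94% of adriamycin and 99.86% of untreated peaks. The genome-wide background is the lowest background recovered.

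Gene positions came from the RefSeq gene table of GRCm38.p6, with 21887 protein-coding and 12727 lncRNA genes and no strand. Eligible sequence is every base that meets the position rule. No genome of the build was used, so base composition and motifs at the peaks were not analysed here. The members, gene lists and alternatives were chosen with earlier results of these data known. Regions were named by rule: the extremes of fold, pileup, q, width and distance, the densest windows, and up to 4 genes per list by distance. Names outside it are marked in the text, and some results under the rule are not reported here. The group of the treated sample came from its title, since its genotype field holds the treatment. Recovery was tested on simulated data. Python 3.11.15, numpy 2.4.6, pandas 2.3.3, scipy 1.17.1 and matplotlib 3.10.9 were used.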

Additional observations from a re-analysis of the deposited data

Results flagged for a closer look

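On sequences outside the chromosomes compared, 34 of 136 adriamycin peaks had a fold below 9 and no untreated counterpart. In the other direction, 21 of 123 untreated peaks there had no adriamycin counterpart. On the chromosomes compared, 65.6% of adriamycin peaks had no untreated counterpart. Mitochondrial peaks numbered 6 in the adriamycin and 3 in the untreated list. The 34 peaks were singled out because they are signal in data that the comparisons do not use. They have no gene positions here and were not analysed further.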

How the results depend on the processing

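The number of peaks that met the rule depended on the strength required. It fell from 4037 to 1686 at q of 1e-05 or less, to 2067 at a fold of at least 5 and to 1271 when both lists had equal length. The median distance to a gene end, 26.8 kb, was 29.7 kb at the stricter q and 33.4 kb at the stricter fold. The share within 10 kb of an untreated peak, 8.84%, was 5.93% when an untreated peak within 1000 bp counted as shared and 10.7% at the stricter q. The share with another such peak within 10 kb, 7.63%, was 3.80% and 3.48% at the stricter q and fold, which leave fewer peaks. The density of 2.52 per Mb was 1.49 over the whole annotated span and 2.73 on autosomes alone, an alternative chosen after seeing the data. Where no cause is given, it was not tested. The other 21 values stayed within their interval or within 1.5 times the count. Among them is the share in pseudogenes under 2 kb, 3.29%, which ran from 3.29% to 3.38% under 4 alternatives chosen after seeing the data. Base composition and motifs at the peaks were not run. No paired analysis was possible because each group has 1 library. Pileups of 6 to 14 fragments at most of these peaks limit every single value.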
